A study of Mus musculus with 15 samples.

Results

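Hsp90ab1 encodes HSP90-beta, the cytosolic form of the HSP90 chaperone that most cells make at all times. Its level was followed in the brain of APP/PS1 mice, a transgenic model of Alzheimer's disease, through 1 probe (CUST_6_PI419532418, assigned to transcript NM_008302.3). This was 1 of 59709 distinct probes, and 1 of 15 reference gene probes that were each printed 20 times per array. The gene was chosen with its processed signal in all groups already known, so its own levels and differences are given as a description with no test.

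The groups were APP/PS1 mice at 1, 3, 6 and 9 months of age and wild-type (WT) mice, all labelled C57BL, with whole-brain RNA and 3 labelled mice per group. The labels give no age for WT, so age and genotype cannot be told apart in any comparison against WT. They name 1 male and 2 females per group, where the design text names males, and they give neither the promoter nor the alleles of the transgenes. Scanner files of 14 arrays were used. The third WT mouse had only local background values, 30.6 to 415 intensity units around the 17 of its Hsp90ab1 spots that were listed, so no level is given for it and WT rests on 2 arrays.

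HSP90 is a dimeric chaperone driven by ATP that finishes the folding of kinases, steroid receptors and other client proteins. Co-chaperones such as Cdc37 and Fkbp5 bring clients to it or set its cycle, and the transcription factor Hsf1, which HSP90 holds inactive, raises the stress-inducible forms. Tau is among its known clients in neurons. The beta form is made constitutively and the related Hsp90aa1 is the more stress-inducible one, which is why Hsp90ab1 is often used as a reference gene. Of 36 genes of the HSP90 machinery (Hsp90aa1, Hsf1, Hspa8, Cdc37, Stip1 and others) 0 had a probe with a matched symbol, and of 8 clients, Mapt (tau) included, also 0. The same held for 22 markers of brain cell types and blood, so the tissue label could not be checked on these arrays. The probe's sequence was not used here, and whether it also reads Hsp90aa1 or a processed copy of Hsp90ab1 was not tested.

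The Hsp90ab1 spots were bright and within the range of the scanner on all 14 arrays. The 20 copies were well above background on each array and 0 were flagged as saturated. The brightest of the 20 copies on an array reached 5.98% to 7.95% of the saturation value. The spot signal was 1457 to 2191 times the local background, taken as the median over the copies. On each array the coefficient of variation of the 20 copies lay between 2.74% and 4.83%, below the error of 10.0% that the scanner software assigns to each spot. On the log2 scale the standard deviation (SD) between copies was 0.040 to 0.071.

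Replicates 2 and 3 at 1, 3 and 6 months were near-identical arrays and were averaged into 1 sample each. Over the negative probes, r between the residuals of the 2 arrays was 0.800 to 0.825, while the highest of the 88 other pairs reached 0.240. The mean log2 signal of Hsp90ab1 differed by 0.018 at 1 month, by 0.0040 at 3 months and by 0.0031 at 6 months within these pairs. The deviations of its 20 copies from their array mean correlated at 0.974 at 1 month, 0.957 at 6 months and 0.429 at 3 months, against a median of 0.413 and a highest value of 0.752 in the other pairs. The points of such a correlation share their positions on the array, and these values are a description. In what follows, replicate 2 at these ages is the mean of both arrays, which leaves 11 samples. Nothing in the labels says how the animals were sampled beyond 1 per label, so the SDs measure the spread between these samples.

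Relative to the rest of the array, Hsp90ab1 was lowest in APP/PS1 brain at 9 months, and on average lower at 3 and 6 months than at 1 month. Values are log2 of the processed signal over the array's own 75th percentile. They were 6.93 and 6.87 at 1 month. At 3 months they were 6.81 and 6.78. At 6 months they were 6.91 and 6.69, so that 1 of the samples lay near WT and the other between 3 and 9 months. At 9 months they were 6.62, 6.58 and 6.59, below each of the other 8 samples. In WT they were 6.92 and 6.93.

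**Figure D1:**
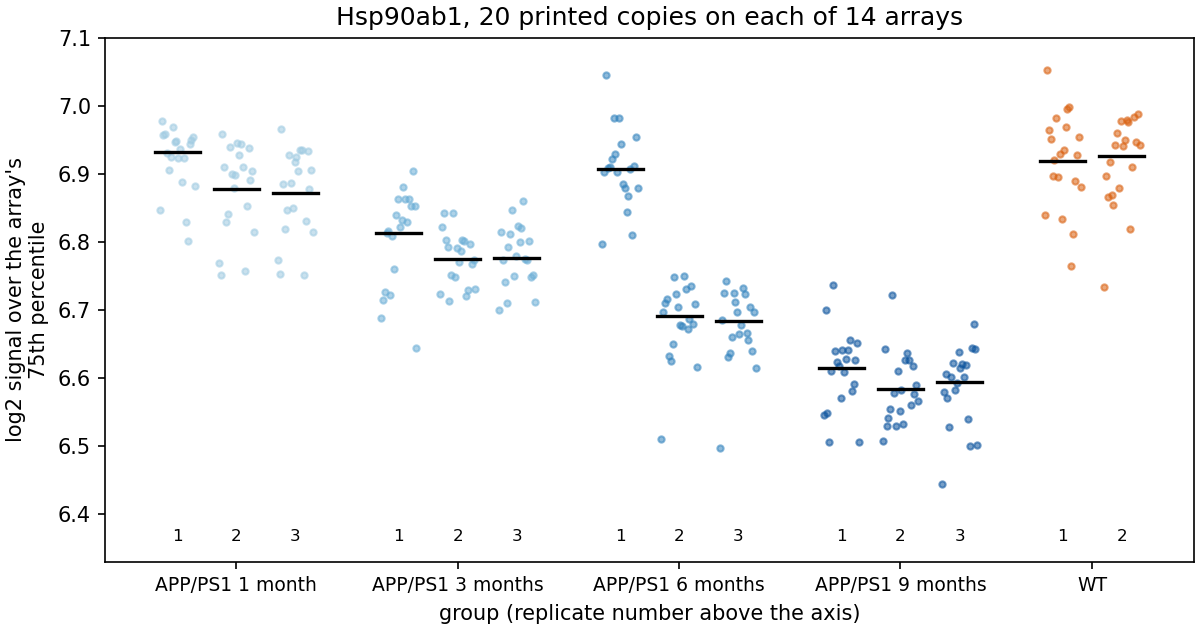
Log2 signal of Hsp90ab1 over the array's 75th percentile (y axis) on each of 14 arrays (x axis, by group and replicate). Points are the 20 printed copies and bars are the mean of the copies without an outlier flag. The 3 arrays at 9 months average between 6.58 and 6.62, and the arrays at 6 months split between 6.91 and 6.68 to 6.69.

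Group means followed the order of WT, 1, 6, 3 and 9 months from high to low. They were 6.90 ± 0.040 (SD, n = 2) at 1 month, 6.79 ± 0.027 (SD, n = 2) at 3 months, 6.80 ± 0.15 (SD, n = 2) at 6 months, 6.60 ± 0.016 (SD, n = 3) at 9 months and 6.92 ± 0.0047 (SD, n = 2) in WT. Among these neighbours, 1 month overlapped WT, 6 months overlapped both 1 month and 3 months, and 9 months overlapped no other group. Samples of 7 of the 10 pairs of groups did not overlap. This count was not set beside the share over all features, and with 2 or 3 samples per group it is a description only. In bulk brain RNA, fewer cells that express the gene and less of its RNA per cell cannot be told apart.

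Set against WT, the scaled level at 9 months differed by -0.33 on the log2 scale, which is 0.798 times the WT level. The pooled SD within both groups was 0.013, an imprecise value from 2 and 3 samples. A limma fit over all 11 samples gave this difference a standard error of 0.079, and no test is drawn from it. The difference was -0.13 at 3 months (pooled SD 0.019) and -0.13 at 6 months (pooled SD 0.11). The value at 6 months was -0.24 without its replicate 1 and -0.016 without its replicate 2. At 1 month it was -0.020, smaller than the pooled SD of 0.028. Within APP/PS1, 9 months against 1 month gave -0.31 (pooled SD 0.026), or 0.809 times the 1-month level. For 6 months against 1 month the value of -0.11 was smaller than the pooled SD of 0.11 and changed to 0.0032 without replicate 2 at 6 months. The arrays at 9 months were scanned at 354 V and all other arrays at 355 or 356 V, so the scan and the age of 9 months cannot be told apart.

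The 20 copies, which share 1 probe sequence and are not replicates of a condition, pointed the same way in most comparisons on the scaled values. At 9 months against WT the scaled difference was below 0 for 20 of 20 copies and ran from -0.39 to -0.18. For 9 months against 1 month it was below 0 for 20 of 20, from -0.40 to -0.18. At 1 month against WT it was below 0 for 13 of 20, from -0.11 to 0.045. Without scaling between arrays the difference at 9 months against WT was below 0 for 9 of 20 copies, from -0.054 to 0.16, and for 0 of 20 at 1 month and at 6 months against WT. It was below 0 for 20 of 20 at 3 months against WT and for 20 of 20 at 9 months against 1 month also without scaling.

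The signal of Hsp90ab1 before any scaling between arrays had another order. The mean processed signal of the 20 copies was 57275, 57880 and 57162 intensity units on the 3 arrays at 1 month. It was 42985, 44636 and 44516 at 3 months, and 53546, 57752 and 57876 at 6 months. At 9 months it was 47828, 50936 and 50060, and in WT it was 48931 and 49158, so the arrays at 9 months lay on both sides of WT. Before scaling, 1 and 6 months were the high groups, 3 months was the low one, and 9 months and WT overlapped.

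The 75th percentile that divides these signals also differed between groups. It was 473, 492 and 488 intensity units at 1 month, 384, 407 and 405 at 3 months, and 446, 562 and 566 at 6 months. At 9 months it was 489, 531 and 520, and in WT it was 404 and 407. On the log2 scale the percentile at 9 months was 0.34 higher than in WT, while the unscaled Hsp90ab1 signal was higher by 0.015. The scaled difference is the second of these values minus the first, and the mean unscaled Hsp90ab1 signal was not lower at 9 months than in WT. At 1 month the unscaled signal was higher than in WT by 0.23 and the percentile by 0.25, and at 6 months they were higher by 0.18 and 0.31. At 3 months the unscaled signal was lower by 0.17 and the percentile was lower by 0.037. The share of spots well above background ran from 68.1% to 82.4% over the arrays.

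**Figure D2:**
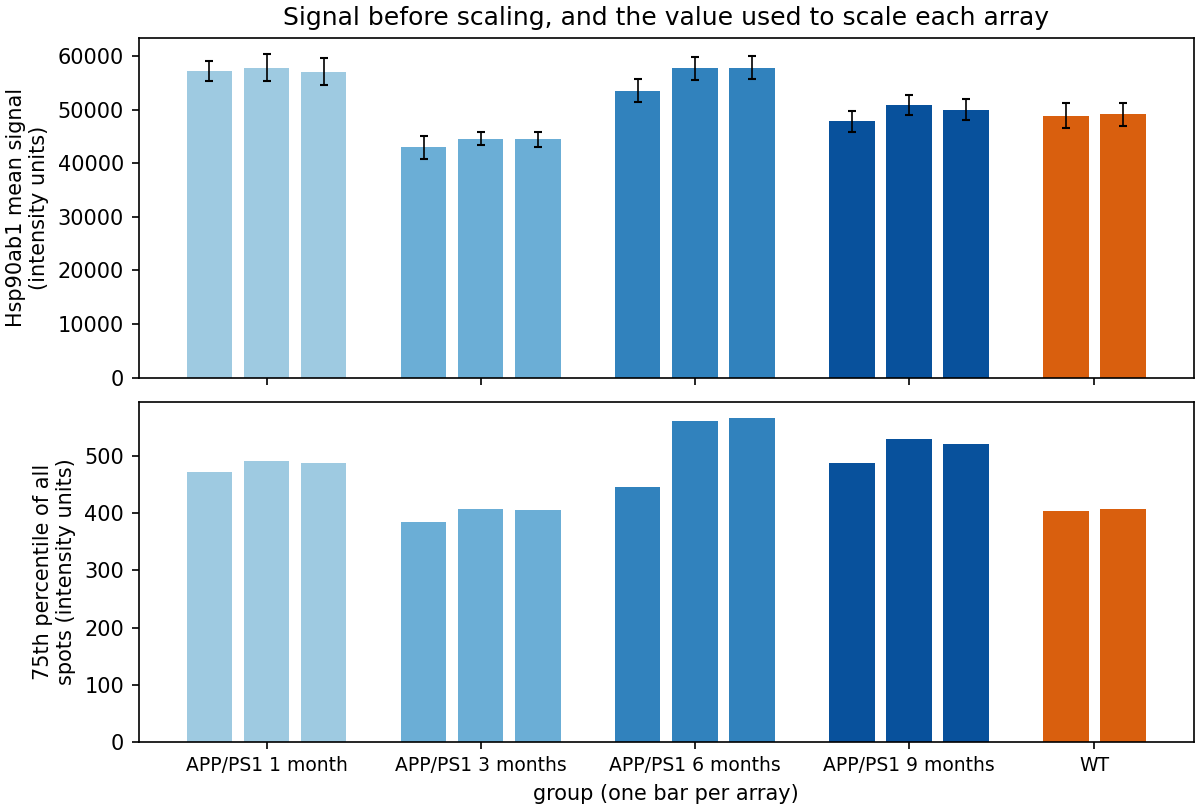
Mean processed signal of the 20 Hsp90ab1 copies (upper panel, intensity units, error bars are the SD between copies) and the 75th percentile of the array (lower panel, intensity units), with 1 bar per array grouped by age and genotype. The percentile is taken over all spots except control and negative-probe spots. Hsp90ab1 at 9 months stands at 47828 to 50936, level with 48931 and 49158 in WT, while the percentile is 489 to 531 at 9 months and 404 and 407 in WT.

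The other 14 reference genes gave a scale of a different kind. When each array was scaled by their mean log2 signal, Hsp90ab1 stood at 2.59 and 2.57 at 1 month, 2.37 and 2.35 at 3 months, and 2.48 and 2.41 at 6 months. It stood at 2.10, 2.11 and 2.16 at 9 months and at 2.38 and 2.38 in WT. Relative to these genes it was highest at 1 month and lowest at 9 months. The group means were 2.58 ± 0.015 (SD, n = 2), 2.36 ± 0.0086 (SD, n = 2), 2.45 ± 0.047 (SD, n = 2) and 2.12 ± 0.032 (SD, n = 3) at 1, 3, 6 and 9 months, against 2.38 ± 0.0038 (SD, n = 2) in WT. Samples of all 10 pairs of groups were apart on this scale. That count too was not set beside the share over all features, and with 2 or 3 samples per group it is a description only. The difference against WT was 0.20 at 1 month, -0.021 at 3 months, 0.064 at 6 months and -0.26 at 9 months, and 9 months against 1 month gave -0.46. The sign at 6 months depended on the use of the mean. Relative to the single genes the median difference was -0.062 at that age, with 8 of 14 lower and 6 higher.

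Of the 6 comparisons, 9 against 1 month and 3 months against WT kept a value below 0 in each of their 15 alternatives. Those of 9 against 1 month ran from -0.66 to -0.21, and those of 3 months against WT from -0.20 to -0.021. Some of the 15 kept the reported scaling. They were the median of the copies, separate arrays, 1 sample left out and, outside 9 months, the arrays scanned at 356 V. They share the scaling of the reported value, so the 15 are not separate readings. At 9 months against WT 14 of 15 were below 0, and the exception was the signal without scaling (0.015). At 6 months against WT 12 of 15 were below 0, and the values above 0 came without scaling (0.18), with the other reference genes as the scale (0.064) and with normexp background correction (0.018). At 1 month against WT 7 were below 0 and 8 above. Of the changes of scaling or background, only the array's median gave a value below 0 (-0.089). The rest of the values below 0 came from runs that kept the reported scaling, so the direction depended on the scaling.

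**Figure D3:**
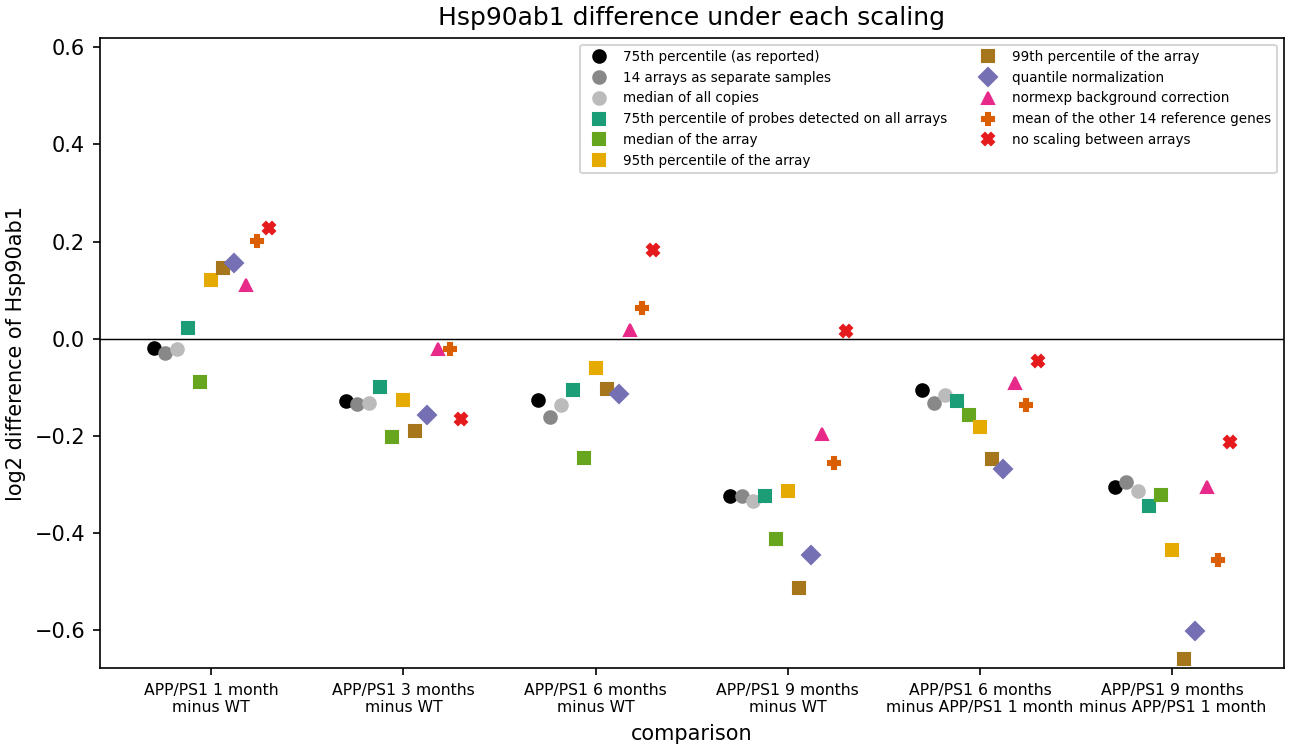
Log2 difference of Hsp90ab1 (y axis) in 6 comparisons (x axis) under the reported scaling and 10 alternatives, 1 symbol each. Values at 9 months minus 1 month all lie below 0, from -0.66 to -0.21, and values at 1 month minus WT lie on both sides of 0.

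Ratios within an array need no scaling between arrays, and they showed Hsp90ab1 lower at 9 months relative to nearly the whole set of reference genes. Against WT, log2 of Hsp90ab1 over the other gene was lower at 9 months for 13 of 14 genes, with a median difference of -0.23. The change was -0.87 relative to B2m, which encodes beta-2 microglobulin of MHC class I, -0.76 relative to Gusb, a lysosomal glucuronidase, and -0.46 relative to Rpl13a, a ribosomal protein gene. It was -0.0046 relative to Actb (cytoskeletal actin) and -0.036 relative to Gapdh (glycolysis), and the samples of both ratios overlapped between 9 months and WT. Nono, a paraspeckle protein gene, was the exception at 0.28. At 1 month the ratio was higher than in WT for 13 of 14 genes, with a median of 0.15 and the exception of Rpl13a (-0.0086). For 9 months against 1 month it was lower for 13 of 14, with a median of -0.36. At 3 months it was lower than in WT for 9 of 14 (median -0.11) and at 6 months for 8 of 14 (median -0.062). These ratios share the Hsp90ab1 signal and the WT samples, so the genes are not independent readings. Before scaling, the other 14 genes were themselves mostly higher at 9 months than in WT (median difference 0.25, 1 of 14 lower), against 0.015 for Hsp90ab1. The lower ratios at 9 months against WT thus do not show a lower Hsp90ab1 signal. The counts out of 14 were not set beside the share over all features.

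**Figure D4:**
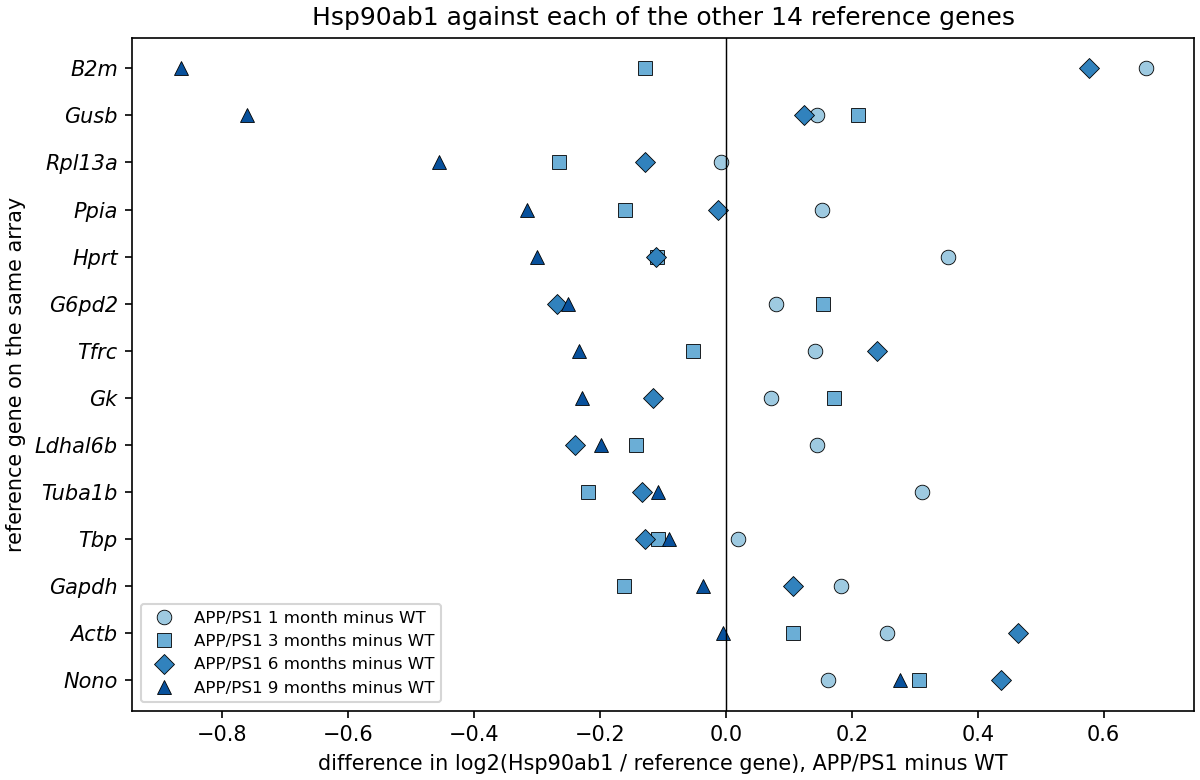
Difference in log2 of Hsp90ab1 over each of the other 14 reference genes (y axis, sorted by the value at 9 months) between APP/PS1 at 1, 3, 6 or 9 months and WT (x axis, 1 symbol per age). At 9 months 13 of 14 lie below 0, from -0.87 for B2m to -0.0046 for Actb, and at 1 month 13 of 14 lie above 0.

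Hsp90ab1 was among the steadier of the 15 reference genes. Its scaled log2 value spanned 0.35 over the 11 samples, with only Rpl13a (0.21) and Ppia, the gene of cyclophilin A (0.26), below it, and far under B2m (1.33) and Gusb (0.97). Before scaling it spanned 0.43, with only Gapdh (0.14), Actb (0.36) and Ppia (0.39) below it.

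The other 14 genes were tested with limma in 1 fit over 48294 features with all 11 samples, at an adjusted p below 0.05. At 9 months against WT 1 was higher and 2 lower, where 30.9% of all features were called (17.4% higher and 13.5% lower). B2m rose by 0.54 (SE 0.068, limma adjusted p = 0.0011). Nono fell by 0.60 (SE 0.097, limma adjusted p = 0.0032), and Actb fell by 0.32 (SE 0.098, limma adjusted p = 0.043). Actb passed in 5 of 16 alternatives. The median over the 14 was -0.094, against 0.046 over all features. For 9 months against 1 month 3 were higher, B2m, Gusb and Hprt (purine salvage), and 1, Nono, was lower, where 32.8% of all features were called (17.8% higher and 15% lower).

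At 6 months against WT 0 were higher and 4 lower (Actb, B2m, Nono and Tfrc, the transferrin receptor), where 21% of all features were called (12.5% higher and 8.44% lower). At 1 month 0 were higher and 2 lower, B2m and Hprt, where 8.55% were called (4.41% higher and 4.14% lower). At 3 months 0 were higher and 2 lower, Nono and Gk, glycerol kinase, where 10.2% were called (6.44% higher and 3.72% lower). For 6 months against 1 month 3 were higher (Hprt, Ldhal6b and Tuba1b) and 1 lower (Nono), where 22.2% were called (12.9% higher and 9.29% lower). Leaving out any 1 sample other than those at 6 months left 0 calls at 3 months. At 1 month it left 1 call, except without replicate 1 at 9 months, which left 2. The calls of Hprt at 1 month and of Nono at 3 months were each lost in 11 of 17 alternatives, and that of Gk in 12. For 6 months against 1 month, those of Ldhal6b, Tuba1b and Nono were lost in 15, 13 and 12 of 17.

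The balance of higher and lower calls depended on the processing. With normexp, 5593 features were higher and 11982 lower at 9 months against WT, where the reported setting gave 8407 higher and 6510 lower. At 6 months against WT normexp gave 3493 higher and 8912 lower, where the reported setting gave 6059 and 4078. At 1 month it gave 969 higher and 2942 lower, where the reported setting gave 2130 and 1999. Quantile normalization gave 7219 higher and 7782 lower at 9 months against WT. For 9 months against 1 month it gave 7371 higher and 8556 lower, and the percentile of probes detected on all arrays gave 8071 and 8422, where the reported setting gave 8586 and 7250. Among the other 14 reference genes, quantile normalization gave 2 higher and 5 lower for 9 months against 1 month, and 1 higher and 3 lower for 6 months against 1 month, where the reported setting gave 3 higher and 1 lower in both. At 9 months against WT these genes were 3 higher and 2 lower with normexp, and 1 higher and 6 lower with quantile normalization. Without replicate 3 at 9 months they were 2 higher and 1 lower. Without replicate 1 at 6 months they were 0 higher and 2 lower at 6 months against 1 month.

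Among 84 other features with a gene symbol, the scaled profile over the 11 samples that was most like that of Hsp90ab1 by Pearson r was Gm3286 (0.93), followed by Tbp (0.90), E330014E10Rik (0.88), Nono (0.86) and Gm21953 (0.83). Each pair of values shares the array's 75th percentile, and r is given as a description of likeness with no test. These genes were picked for a profile that is low at 9 months, so their own values at that age are a description too. Tbp, the TATA-binding protein gene, was also like it in size, with a span of 0.38 and a root mean square gap of 0.060 on the log2 scale after each gene's mean was removed. Its scaled values were 2.21, 2.15 and 2.15 at 9 months and 2.37 and 2.44 in WT. Gm3286 had a wider span of 1.27 and stood at -1.47, -1.46 and -1.27 at 9 months and -0.24 and -0.20 in WT. The lowest r belonged to Btbd35f4 (-0.89), B020031M17Rik (-0.88) and 4930526I15Rik (-0.88). Btbd35f4 was dim, at -5.18 and -5.03 in WT and at -4.06, -3.86 and -3.53 at 9 months. Features entered with 3 arrays well above background, and whether Btbd35f4 did so only through the 9-month arrays was not tested. Among probes without a symbol, ASMM9PARTA038259 (0.98) and ASMM9PARTA038042 (0.97) had the highest r, and 541 features in all exceeded 0.9.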

How the data were processed

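Brain RNA was hybridised to 1-colour (Cy3) Agilent arrays, per the labels' protocols. Per the submitters' processing notes, Feature Extraction 10.7.1.1 produced the intensities that the authors deposited. The processed signal is background-subtracted and spatially detrended within an array, per the file headers, and is not scaled between arrays. Other deposited values are flags of 0 or 1 per spot. The deposited value table equalled the local background intensity on all 14 arrays, so it holds no expression values. The genome build was not given in the sources used here, so no coordinates are printed. Of 59709 probes, 116 matched a symbol through RefSeq identifiers (GRCm38.p6 table, names only).

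Control spots and 1200 negative-probe spots were left out. The log2 processed signal minus the array's 75th percentile was averaged over copies without outlier flags. Arrays of 1 group whose negative-probe residuals correlated above 0.5 were averaged. Features entered the test where at least 3 arrays had the probe well above background (48294 features), with limma 3.58.1 in R 4.3.3, Benjamini-Hochberg adjusted over all of them. The fit was also run on simulated data with independent noise, and the calls draw no support from that run. The number of arrays limits the precision. Replicates are numbered in accession order and pair no samples. Hsp90ab1 and all lists and rules were chosen with earlier results of these data known. Named were Hsp90ab1, the other reference genes, measured list genes, and the genes of highest and lowest r (5 and 3 symbols, 2 probes).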

Additional observations from a re-analysis of the deposited data

How the results depend on the processing

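No paired analysis was possible because every title carries the same replicate number. The mean signal column that a planned normexp correction needs was not used here, and the median signal took its place. Differences of Hsp90ab1 that moved by more than the spread between replicates are given on the log2 scale, beside the reported values of -0.020, -0.13, -0.13 and -0.33 at 1, 3, 6 and 9 months against WT, -0.11 for 6 against 1 month and -0.31 for 9 against 1 month. At 1 month against WT the value was 0.11 with normexp, 0.16 with quantile normalization, 0.021 with probes detected on all arrays, -0.089 with the array's median, 0.20 with the other reference genes, 0.12 and 0.15 with the 95th and 99th percentile and 0.23 without scaling. At 3 months it was -0.021, -0.16, -0.099, -0.20 and -0.021 for the first 5 of these, -0.19 with the 99th percentile and -0.17 without scaling. At 6 months it was 0.018 with normexp, -0.25 with the median, 0.064 with the other reference genes and 0.18 without scaling. At 9 months it was -0.20 with normexp, -0.45 with quantile normalization, -0.41 with the median, -0.26 with the other reference genes, -0.51 with the 99th percentile and 0.015 without scaling. For 6 against 1 month it was -0.27 with quantile normalization and -0.25 with the 99th percentile. For 9 against 1 month it was -0.60 with quantile normalization, -0.34 with detected probes, -0.46 with the other reference genes, -0.44 and -0.66 with the 95th and 99th percentile and -0.21 without scaling. The settings without scaling and with the 95th and 99th percentile were chosen after seeing the data. The spread that decides what moved is the pooled SD of 2 or 3 samples per group, from 0.013 to 0.11, and is itself imprecise. The median of the copies, the 14 arrays as separate samples and, for the 4 comparisons without 9 months, the arrays scanned at 356 V alone moved no value by more than the spread. No array at 9 months was scanned at 356 V, so this was not run for that age. The arrays left out at the other ages, scanned at 355 V, were replicate 3 at 1, 3 and 6 months. Each was near-identical to the replicate 2 that stayed in, so leaving them out could not show whether the scan setting matters. Leaving out 1 sample gave -0.048 to 0.0086 at 1 month, -0.15 to -0.11 at 3, -0.24 to -0.016 at 6 and -0.33 to -0.32 at 9 months against WT, -0.22 to 0.0032 for 6 and -0.33 to -0.28 for 9 against 1 month.

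Counts of features called by limma at 1 month against WT were 4129, and 10644 with 14 arrays, 7610 with the scan setting as a block, and 1393 to 4305 without 1 sample. At 3 months they were 4909, and 10428 with 14 arrays, 2241 with normexp, 7835 with the block and 2149 to 5128 without 1 sample. At 6 months they were 10137, and 16846 with 14 arrays and 6611 to 9512 without 1 sample, and at 9 months 14917 and 9905 to 15515. For 6 against 1 month they were 10712, and 18106 with 14 arrays, 6767 with normexp, 16896 with the block and 6417 to 10070 without 1 sample, and for 9 against 1 month 15836 and 9766 to 16379. The lowest counts came without replicate 1 at 1 month and at 3 months for these ages against WT, without WT replicate 1 at 6 and 9 months, and without replicate 2 at 1 month for both comparisons with 1 month. The block could not be fitted for 9 months, whose scan setting holds no other group. Of the other 14 reference genes, the 2 called at 1 month became 5 with 14 arrays, 1 with normexp, with quantile normalization and without the detection filter, and 1 to 3 without 1 sample. The 2 at 3 months became 0 with normexp and without the filter, 4 with the block and 0 to 3 without 1 sample. The 4 at 6 months were 3 to 5 without 1 sample. The 3 at 9 months became 6 with 14 arrays, 5 with normexp, 7 with quantile normalization, 5 with detected probes and 2 to 6 without 1 sample. The 4 for 6 against 1 month became 7 with 14 arrays and with the block, 1 with normexp and without the filter, and 0 to 3 without 1 sample, and the 4 for 9 against 1 month became 7 with 14 arrays and with quantile normalization and 1 to 4 without 1 sample. At 1 month against WT the lower calls outnumbered the higher ones without replicate 1 (593 higher, 800 lower) or replicate 2 (751 and 769) at 1 month, or replicate 3 at 9 months (1422 and 1423). The cause of these shifts was not tested. The 19 results on single genes were those of the other reference genes called in the reported setting, so a call could only be kept or lost. Of these, 0 changed direction and 7 kept their call in all their alternatives. The 7 were B2m at 9 against 1 month, and against WT B2m at 1, 6 and 9 months, Nono at 6 and 9 months, and Actb at 6 months. The number of arrays limits the precision of all these values.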

Other observations

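In each group the first replicate is labelled male and the others female, and the values by sex were set side by side after they had been seen. The scaled log2 level of Hsp90ab1 was higher in the male by 0.057 at 1 month, 0.038 at 3 months, 0.22 at 6 months and 0.026 at 9 months. In WT the male minus female difference was -0.0067. Before scaling, the male was the higher one in 1 of 5 groups, and the 75th percentile of the array was lower in the male in 5 of 5. With 1 male per group and the near-identical arrays among the females, no test was made.

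The 20 copies of the Hsp90ab1 probe lie at different rows and columns of the array. The copy at row 2 and column 21 was below the array's mean on 14 of 14 arrays, by 0.11 on average on the log2 scale. No other copy was on 1 side of the mean on all of them, and the averages of the 20 copies ran from -0.11 to 0.039. The coefficient of variation between copies was 2.74% to 6.07% on the background-subtracted signal, against 2.74% to 4.83% on the processed signal. The change differed between arrays. In WT replicate 1 the value went from 6.07% to 4.81%, in WT replicate 2 it was 4.39% on both, and at 3 months replicate 3 it went from 2.96% to 3.09%.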
